A study of Xenopus tropicalis x Xenopus laevis and Xenopus tropicalis with 6 samples.

Results

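In embryos of the cross between *X. tropicalis* eggs and *X. laevis* sperm, every cell starts with an *X. tropicalis* genome from the mother and an *X. laevis* genome from the father, so both copies of a gene can be read in the same library. Genes were paired by name: a name was used where the deposited table held exactly 1 *X. tropicalis* feature and 1 or 2 *X. laevis* features of that name. This gave 9972 paired genes of the 30560 names in the table. *X. laevis* is allotetraploid, and its chromosomes come as long (L) and short (S) homeologs. Of the pairs, 4420 had an L and an S feature, 3781 had only an L feature and 1771 only an S feature. A homeolog listed under another name would be missed, so a gene with 1 feature may have a further copy. The pairs lay on chromosomes of the same number in both species in 8934 cases. Of the other 1038, 945 involved an unplaced scaffold.

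The hybrids were whole embryos from *X. tropicalis* eggs and *X. laevis* sperm, 7 hours after fertilization (replicates 40, 41 and 42). The comparison embryos were *X. tropicalis*, also whole and at 7 hours (replicates 37, 38 and 39). The series title states that the hybrids are inviable, and neither group carried a treatment or an engineered allele. PolyA RNA was sequenced, and the sources used here do not give strain, parents or embryos per library. Summed counts ran from 71435751 to 100025277 per library, and the paired features took 69.3 to 70.2% of the counts of the hybrid libraries.

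An egg holds a large store of messenger RNA made by the mother before fertilization, and an embryo lives on that store until its own genome is switched on at the midblastula transition. Apart from the little RNA that sperm may carry, RNA from sperm-derived genes is new RNA, whereas RNA from egg-derived genes is a mixture of stored and new RNA. Gastrula embryos use their new RNA to build the organizer, the germ layers and the neural plate, through transcription factors and secreted signals of the Nodal, Wnt, BMP and FGF families.

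For each gene, the maternal level was the count on the *X. tropicalis* feature, scaled to library size as CPM. The net paternal level was the summed CPM on the *X. laevis* features minus the mean CPM of those features in the *X. tropicalis* libraries, where no *X. laevis* gene was present and counts are background. The paternal share is the net paternal level as a percentage of both. In shares, including those of summed levels, a net level below 0 was counted as 0 gene by gene, which can raise a summed share. Shares are given as the mean ± SD over the 3 hybrid libraries (n = 3), and fitted log2 ratios of paternal to maternal counts, from which no background is subtracted, as the estimate ± SE. Values of the libraries are always in the order of replicates 40, 41 and 42. A gene was called higher on the paternal side if the 2 copies differed within the hybrid libraries (edgeR quasi-likelihood test, Benjamini-Hochberg adjusted p under 0.05), if its *X. laevis* counts lay above background, and if the net paternal level exceeded the maternal level in all 3 libraries. It was called higher on the maternal side if the same test passed and the net paternal level was lower in all 3. Transcript lengths were not used, so a ratio between copies also carries any difference in the length of the features. *X. laevis* reads counted on *X. tropicalis* features could not be measured. Background is subtracted from the paternal level but is not added to the maternal level. In whole embryos, fewer cells of a type and less RNA per cell cannot be told apart.

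The maternal copies supplied most of the RNA of paired genes. The paternal copies made up 10.01, 11.8 and 12.1% of the summed level in hybrid replicates 40, 41 and 42, a mean of 11.3% ± 1.15 (SD, n = 3). With no background subtracted the share was 14.1%. The median gene had a paternal share of 7.51% by the mean of its 3 library shares, with a net level below 0 counted as a share of 0. The medians within the libraries were lower, at 4.74, 7.05 and 6.26%. Of the 9185 genes tested, 1690 had a paternal share under 1%, 3386 had 1 to 10%, 2623 had 10 to 50%, 1036 had 50 to 90% and 445 had at least 90%.

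Paternal RNA was seen for most genes with enough *X. laevis* counts to test. *X. laevis* counts lay above background for 4180 of 6986 paired genes tested against the *X. tropicalis* libraries, which is 59.8%, against 55.1% of all 13074 *X. laevis* names tested. Another 18 paired genes, 0.258%, were lower in hybrids than in background. Hybrid counts alone could bring a name through the low-count filter, so these percentages depend on it. Of the 9185 genes tested between copies, 45.5% lay above background. Here and below, a gene with too few *X. laevis* counts for the background test is counted as not above background. Within hybrids, the maternal copy was higher for 5208 genes (56.7% of those tested) and the paternal copies for 301 (3.28%). The other 3676 were called neither way. Of these, 1251 lay above background, with a median paternal share of 50.1%, and 2425 did not. Leaving out 1 hybrid library reduced the paternal calls to 146 (replicate 40), 120 (replicate 41) and 159 (replicate 42), and no gene changed direction.

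**Figure D1:**
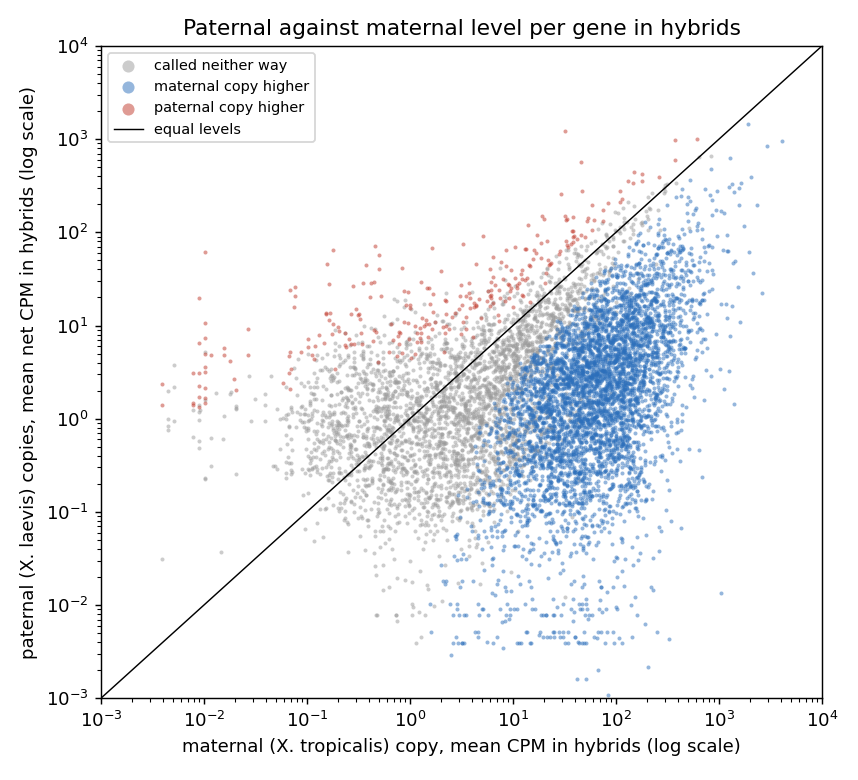
Each point is a tested gene, with the mean CPM of its maternal copy in the 3 hybrid libraries on the horizontal axis and the mean net CPM of its paternal copies on the vertical axis, both on log scales. Most points lie below the line of equal levels. Genes called maternal (blue, 5208 in all) lie below it and those called paternal (red, 301 in all) above it. Genes without a positive mean for both copies cannot be drawn. These include 36 paternal calls without a maternal count and 137 maternal calls without a paternal count in hybrids.

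The balance differed with the number of *X. laevis* features. Sperm brings 1 L and 1 S copy of a gene that kept both, so 3 copies with equal output would give a paternal share of 66.7%. Genes with 2 *X. laevis* features had a median share of 11.1% (n = 4314) and genes with 1 had 4.92% (n = 4871). The order was the same in each library, with medians of 8.16, 10.8 and 10.5% for 2 features and 2.50, 4.46 and 2.92% for 1. Paternal calls were made for 207 genes with 2 features (4.80%) and 94 with 1 (1.93%). Among genes above background the medians were 14.7 and 11.9%.

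The share also moved with the level of the gene in *X. tropicalis* embryos. In 5 groups of 1837 genes ranked by that level, the median share was 59.9, 13.1, 5.29, 3.48 and 2.85% from the lowest to the highest group. The maternal copy is the denominator of the share and the same feature sets the ranking, so this order is partly built in. The low-count filter also kept genes with enough counts on either copy in hybrids. A gene low in *X. tropicalis* could thus enter through its paternal counts, which can raise the shares, levels and calls of the low groups. The net paternal level itself, which the ranking did not use, had medians of 0.766, 0.839, 1.24, 2.26 and 5.80 CPM in the same order. Above-background calls took 33.4, 30.8, 38.6, 52.9 and 71.7% of the groups. Paternal calls were most numerous in the lowest group, with 151, 77, 36, 13 and 24 genes. Maternal calls rose with the level, at 39, 543, 1290, 1614 and 1722 genes.

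**Figure D2:**
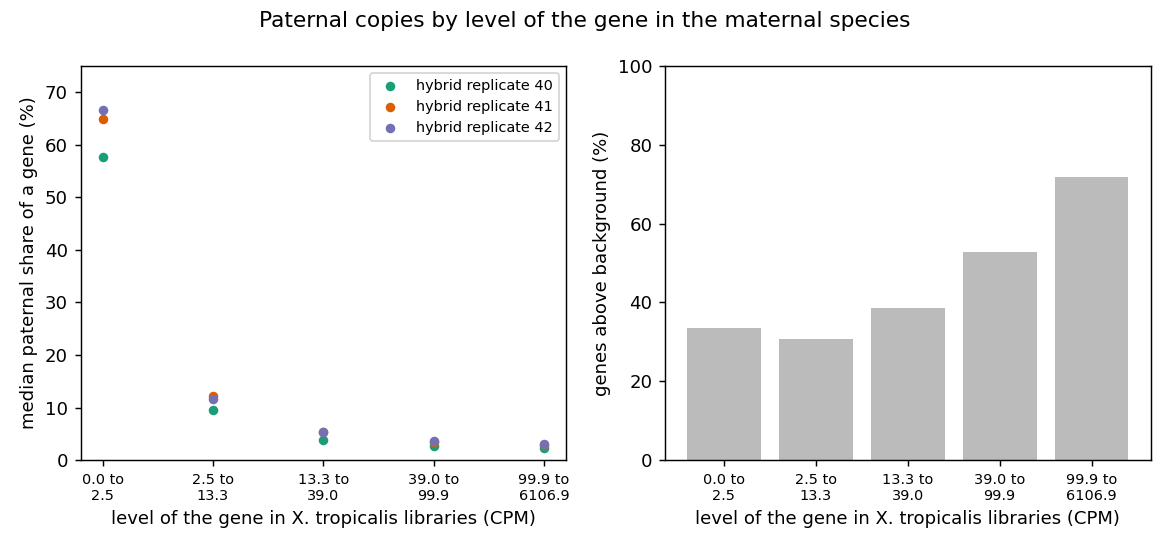
Left, the median paternal share of the genes (percent) in each hybrid library, and right, the percentage of genes whose paternal copies lay above background, for 5 groups of 1837 genes ranked by their level in the *X. tropicalis* libraries. The share is highest in the lowest group (59.9%, from the mean share of each gene over the libraries) and the fraction above background is highest in the highest group (71.7%).

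Paternal chromosomes 3L and 4L gave the lowest shares among L chromosomes. Genes with only a copy on 3L had a summed paternal share of 2.53% ± 0.527 (SD, n = 3 libraries) and genes with only a copy on 4L had 3.14% ± 0.219, against 4.37 to 8.05% on the other L chromosomes. Genes with only a copy on 3S had 4.23%, the lowest of the S chromosomes, and on 4S 5.72%, against 4.54 to 9.50% on the other S chromosomes. Genes with both copies were also lowest on these chromosomes, at 8.28% on chromosome 3 and 6.61% on chromosome 4, against 12 to 17.9% elsewhere. Of genes whose only feature of the name lay on 3L or 4L, 13.8 and 15.5% lay above background, against 31.3 to 41.2% on the other L chromosomes. These are descriptions of 3 libraries, with no test.

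**Figure D3:**
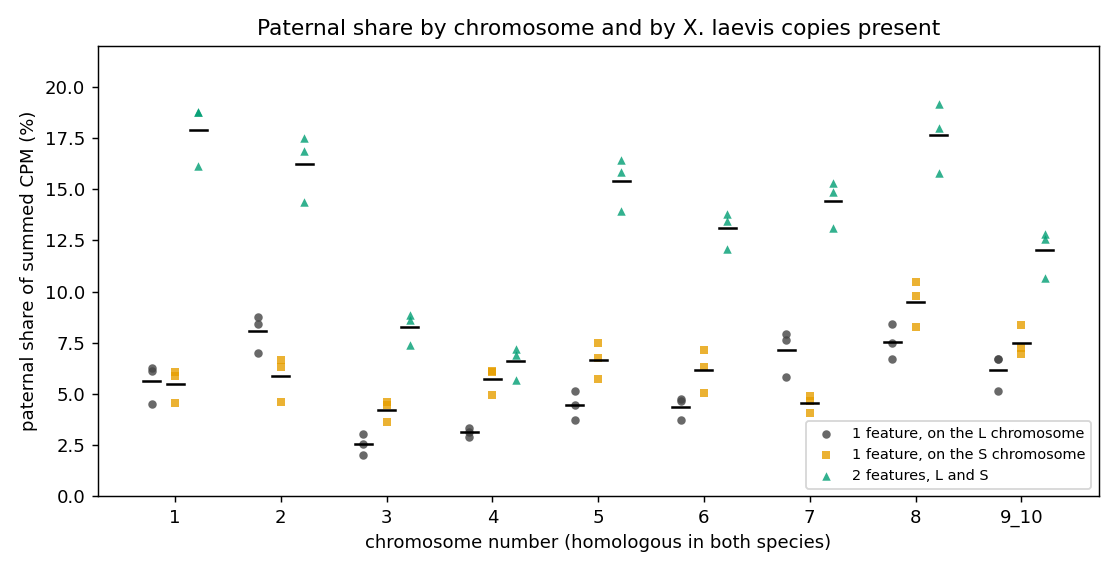
The vertical axis is the paternal share of the summed CPM (percent) of paired genes on homologous chromosomes, split by the *X. laevis* features the gene has, and each point is 1 hybrid library with bars at the mean of 3. On each chromosome genes with an L and an S feature sit above those with 1 feature. Genes with only a feature on 3L or 4L sit lowest of all, at 2.53 and 3.14%.

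Median paternal shares differed widely between the gene lists. The 5 lists of gastrula regulators (organizer, mesoderm, endoderm, ventral and BMP response, and neural plate and ectoderm) had median paternal shares of 61.8, 48.7, 42, 49.9 and 47.6%. Joined, they held 101 tested genes, of which 17 were higher on the paternal side, 16 on the maternal side and 68 neither, and 82 (81.2%) lay above background, against 45.5% of all tested genes. Paternal calls were 16.8% and maternal calls 15.8% of the joined regulators, against 3.28 and 56.7% of all tested genes. Their joint median was 50.9%, with library medians of 51.1, 58.5 and 56.0%. The 5 lists are broad and also hold genes such as *krt18*, *epcam* and *a2m*, so these values describe the lists and not regulators alone. The 6 lists of general cell function (ribosome, proteasome, respiratory chain, carbon metabolism, RNA binding and chromatin) joined 159 tested genes, with 1 paternal call, 137 maternal calls and a median of 6.74%. Of those 159, 116 lay above background (73.0%). Maternal calls were 86.2% and paternal calls 0.629% of them. The lists were chosen with earlier results of these data known, so the difference is a description. Here and below, lists are set against all tested genes and are not matched for level. In the group of highest level in *X. tropicalis* embryos, 1722 of 1837 genes were maternal calls and 71.7% lay above background.

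**Figure D4:**
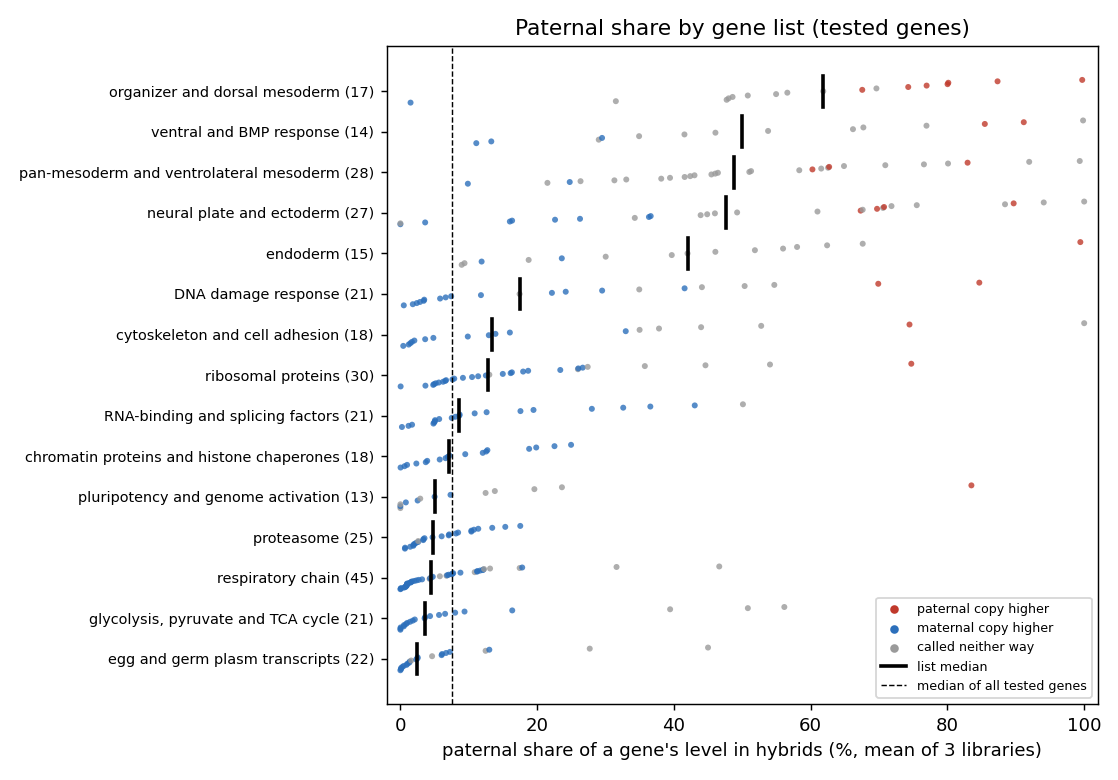
Each point is a tested gene at its paternal share (percent, mean of 3 hybrid libraries), grouped by gene list with the number tested in brackets, coloured by the call, with a bar at the list median and a dashed line at the median of all tested genes (7.51%). Lists of gastrula regulators have medians of 42 to 61.8%, and the other lists drawn have medians of 2.41 to 17.4%. The list of tissue markers with 3 tested genes is not drawn.

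The organizer list had the highest median paternal share of the lists. The organizer is the dorsal centre of the gastrula that secretes inhibitors of BMP and Wnt signals. Of 17 tested members, 7 were higher on the paternal side, 1 on the maternal side and 9 neither, and 15 lay above background. These were 41.2% paternal, 5.88% maternal and 88.2% above background, against 3.28, 56.7 and 45.5% of all tested genes. The list is broad and also holds genes such as *hhex* and *rax*, so these values describe the list and not the organizer itself. *gsc*, the homeobox repressor that defines the organizer, had 55.8, 35.8 and 33.8 CPM on the maternal copy in replicates 40, 41 and 42 and 95.4, 86.1 and 75 CPM on the paternal copies. The paternal level was the higher in each library, with a log2 ratio of 1.06 ± 0.28 (SE, adjusted p = 0.0317). Counted per paternal copy, the ratio of *gsc* was 0.07 and the call was lost. *pnhd*, which encodes a secreted protein, had 53.3, 34.3 and 23.5 CPM maternal and 101, 116 and 95.3 CPM paternal (log2 ratio 1.57 ± 0.35, adjusted p = 0.0198). The secreted Wnt modulator *sfrp2* had 59.7, 54.9 and 62.4 CPM maternal and 178, 204 and 212 CPM paternal, a paternal share of 77.0% ± 1.96. Its maternal and paternal values did not overlap, and its adjusted p was 0.00341.

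Other organizer members were closer to balance. *foxa4*, a forkhead factor of axial mesoderm, had 164, 86.0 and 98.5 CPM maternal and 219, 186 and 147 CPM paternal, a share of 61.8% ± 5.85, and did not pass the test (adjusted p = 0.0537). The notochord homeobox gene *not* had a share of 56.6% ± 6.72 and the secreted Wnt antagonist *frzb* 47.7% ± 1.2, with log2 ratios of 0.39 ± 0.23 and -0.13 ± 0.21. Neither passed (adjusted p = 0.202 and 0.609). The other 4 paternal calls were singled out after their values were seen: *cer1*, *admp*, *hhex* and *rax*. *admp*, a BMP-like ligand of the organizer, had 10.2, 13.1 and 5.71 CPM maternal and 49.96, 32.6 and 35.2 CPM paternal. *hhex*, a homeobox gene of anterior endoderm, had 6.86, 7.57 and 3.89 and 20.8, 28.7 and 23.5 CPM. *rax*, the retinal homeobox gene, had 0.189, 0 and 0.0154 CPM on the maternal copy against 23.3, 24.1 and 25.5 CPM on the paternal copies. The *X. tropicalis* libraries held 0.397 CPM of it. *cer1*, a secreted antagonist of Nodal, BMP and Wnt, had 39, 40.1 and 7.15 net paternal CPM after a background of 35.1 CPM was subtracted, and its call was lost without *X. tropicalis* replicate 37 or 38, at an unchanged log2 ratio of 4.35. Net of background its log2 ratio was 2.88 ± 0.76 (SD, n = 3). The *X. tropicalis* feature of *cer1* held 13.6 CPM in *X. tropicalis* libraries, less than the background, so its maternal level may be too low. The 1 maternal call was *nodal3.2*, a Nodal-related ligand with 1 paternal feature on 3L, at 23.8, 25.8 and 24.7 CPM maternal and 0.566, 0.564 and 0 CPM paternal.

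With only 2 hybrid libraries, some of these calls were lost while the direction stayed. *gsc* lost its call without each library in turn (log2 ratio 0.96 to 1.21), and *pnhd* without replicates 41 (1.47) and 42 (1.34). *hhex* lost it without each of the 3 (1.76 to 2.26), *admp* without replicates 40 (1.97) and 42 (1.81), *cer1* without replicates 40 (4.79) and 41 (4.18), and *nodal3.2* without replicates 40 (-7.85) and 41 (-7.83).

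**Figure D5:**
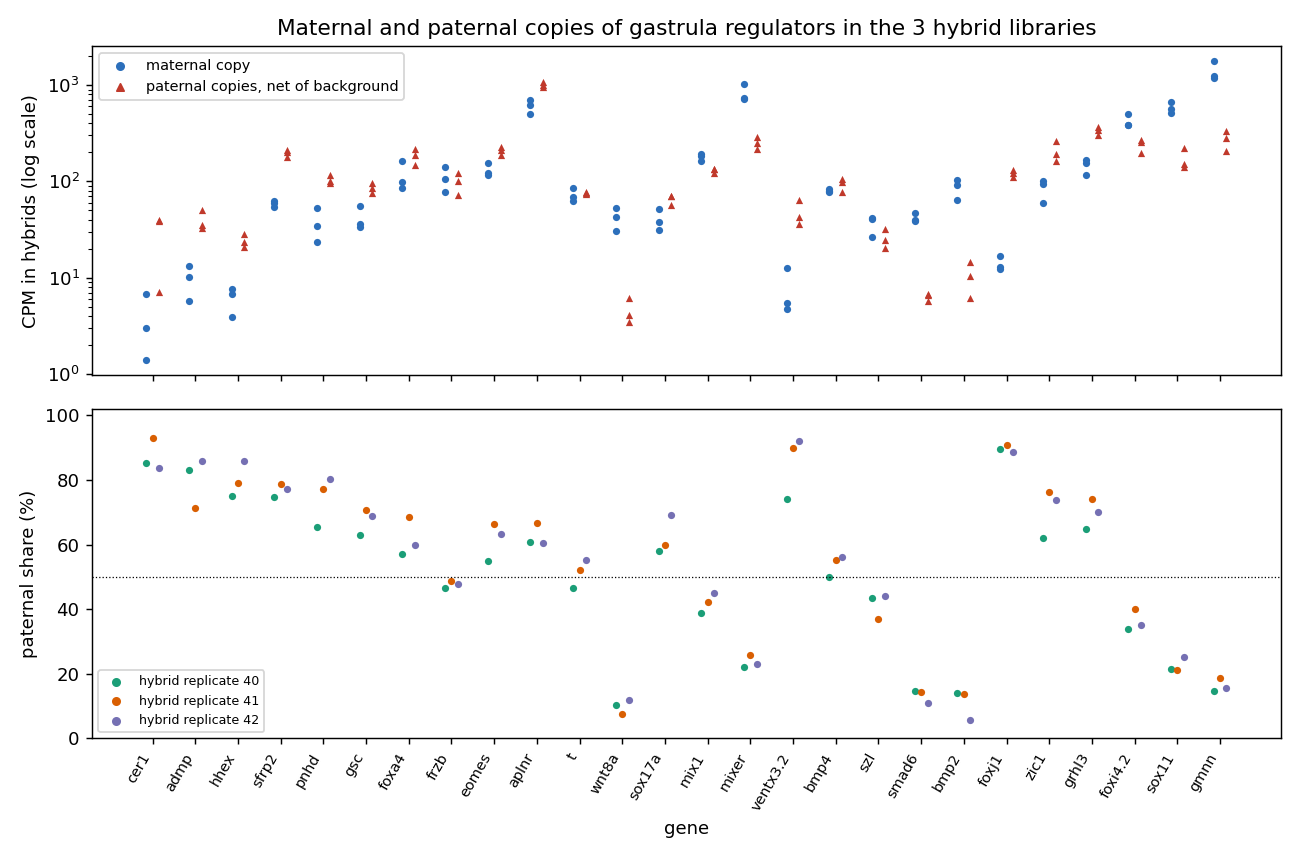
Upper panel, CPM (log scale) of the maternal copy and net CPM of the paternal copies of gastrula regulators in each of the 3 hybrid libraries. Lower panel, the paternal share (percent) in each library, with a dotted line at 50%. Shares run from under 15% (wnt8a, smad6, bmp2) to above 80% (cer1, foxj1).

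Most mesoderm genes were called neither way. The most abundant gene of the list, that of the apelin receptor, was a paternal call. Of 28 tested members of the mesoderm list, 3 were higher on the paternal side, 2 on the maternal side and 23 neither, and 23 lay above background. Paternal calls were 10.7%, maternal calls 7.14% and genes above background 82.1%, against 3.28, 56.7 and 45.5% of all tested genes. The apelin receptor gene *aplnr*, used by migrating mesoderm cells, had 618, 496 and 703 CPM on the maternal copy and 964, 996 and 1071 CPM on the paternal copies (log2 ratio 0.75 ± 0.13, adjusted p = 0.00936). The call was lost with limma on net log2 ratios, at the same ratio (0.75). In the *X. tropicalis* libraries the same maternal feature held 111 CPM. The maternal level and the summed paternal level were each above that value in every hybrid library. The gene of its ligand, *apln*, was 1 of the 12 genes with the largest paternal ratio, at 0, 0.541 and 0 CPM maternal and 55.5, 73.5 and 66.6 CPM paternal. Without replicate 40 the call of *apln* was lost (log2 ratio 9.22).

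*rasl11b*, a small GTPase of the Ras family, had 249.9, 239 and 287 CPM maternal and 336, 436 and 411 CPM paternal (log2 ratio 0.61 ± 0.16, adjusted p = 0.0305), and lost its call without each hybrid library in turn (0.47 to 0.69). The T-box factor *eomes* had a share of 61.5% ± 5.97 and just missed the test (adjusted p = 0.0524). It passed when replicate 40 was left out (log2 ratio 0.89). *wnt11b*, a Wnt ligand of convergent extension, had 117, 97.6 and 81.8 CPM maternal and 149, 161 and 185 CPM paternal (adjusted p = 0.0573). The FGF feedback inhibitors *spry1* and *spry2* had shares of 43.0% ± 8.59 and 45.5% ± 4.63. Brachyury (*t*), chosen after its values were seen as the classical pan-mesoderm gene, had 85.5, 69.7 and 62.3 CPM maternal and 74.2, 76.0 and 76.8 CPM paternal, a log2 ratio of 0.08 ± 0.26 (adjusted p = 0.809).

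Further mesoderm calls were singled out after their values were seen. The FGF ligand gene *fgf3* was higher on the paternal side, at 3.34, 1.46 and 2.86 CPM maternal and 16.5, 10.4 and 10.1 CPM paternal. *wnt8a*, the ventrolateral Wnt ligand, went the other way, at 53.1, 42.9 and 30.7 CPM maternal and 6.11, 3.46 and 4.12 CPM paternal (log2 ratio -3.21 ± 0.42, adjusted p = 0.00477). Its paternal copies lay on 3L and 3S. *cdx4*, a caudal homeobox gene, had a paternal share of 24.8% ± 7.43. The call of *fgf3* was lost without replicate 40 (log2 ratio 2.33) or 41 (2.07), and that of *cdx4* without each library in turn (-1.90 to -1.31).

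The endoderm list was spread over a wide range of shares, with quartiles at 21.2 and 57.0%. Of 15 tested, 1 was higher on the paternal side, 2 on the maternal side and 12 neither, and 11 lay above background. The percentages were 6.67, 13.3 and 73.3% for paternal, maternal and above background, against 3.28, 56.7 and 45.5% of all tested genes. *sox17a* and *sox17b.1*, the SOX factors that specify endoderm, had paternal shares of 62.4% ± 5.92 and 58.0% ± 8.82, and *gata4* had 51.8% ± 8.32. None of these passed the test (adjusted p = 0.106, 0.293 and 0.780). *lefty*, which encodes a Nodal inhibitor, had 44.6, 36.8 and 23.0 CPM maternal and 46.0, 44.1 and 38.5 CPM paternal. Related homeobox factors of mesendoderm differed in share. *mix1* had 191, 184 and 165 CPM maternal and 121, 134 and 134 CPM paternal (log2 ratio -0.46 ± 0.19, adjusted p = 0.0912), and *mixer* had 1017, 713 and 727 CPM maternal and 288, 248 and 217 CPM paternal (log2 ratio -1.69 ± 0.13, adjusted p = 0.00152). The difference between them was not tested. The other maternal call was the Nodal ligand gene *nodal2* (11.9% ± 7.15), which lost its call without replicate 40 (log2 ratio -2.84) or 41 (-2.72). The paternal call was *a2m*, a protease inhibitor gene, at 0.229, 0 and 0 CPM maternal and 13.4, 21.4 and 26.8 CPM paternal. It lost its call without replicate 41 (8.23) or 42 (8.12). The *X. tropicalis* feature of *a2m* lay on an unplaced scaffold and had no count in the *X. tropicalis* libraries.

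Ligands and inhibitors of the BMP pathway, which patterns the ventral side, ranged over nearly the whole scale. Of 14 tested members of the ventral list, 2 were higher on the paternal side, 3 on the maternal side and 9 neither, and 12 lay above background. Paternal calls were 14.3%, maternal calls 21.4% and genes above background 85.7%, against 3.28, 56.7 and 45.5% of all tested genes. *bmp4*, the main ventral ligand, had 77.8, 80.0 and 83.5 CPM maternal and 77.5, 99.0 and 107 CPM paternal, a share of 53.8% ± 3.38 (adjusted p = 0.429). *bmp2*, a related ligand that is also stored in the egg, had 63.7, 91.6 and 104 CPM maternal and 10.4, 14.6 and 6.15 CPM paternal, a share of 11.1% ± 4.78 (adjusted p = 0.00738). The 2 ligands thus lay far apart, though the difference between them was not itself tested. The pseudoreceptor gene *bambi* had 46.1% ± 10.1, the secreted inhibitor gene *szl* 41.5% ± 3.88 and the Notch and BMP target *hes1* 67.7% ± 6.47, none past the threshold. *hes1* was called paternal with DESeq2 (log2 ratio 1.08) and with limma at a pseudocount of 0.5 (1.07). *id2*, an inhibitor of helix-loop-helix factors, was higher on the maternal side at 29.5% ± 8.77, a call lost without replicate 40 (log2 ratio -1.2) or 41 (-1.04). Chosen after their values were seen, *smad6*, an intracellular inhibitor, was higher on the maternal side at 13.3% ± 2.02. The ventral homeobox gene *ventx3.2* was higher on the paternal side at 85.5% ± 9.89, as was *bmp7.1* at 91.2% ± 6.55. Both lost their calls without replicate 41 (log2 ratios 2.54 and 3.45) or 42 (2.35 and 3.15).

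The ectoderm list held calls in both directions. Of 27 tested, 4 were higher on the paternal side, 8 on the maternal side and 15 neither, and 21 lay above background. The percentages were 14.8, 29.6 and 77.8% for paternal, maternal and above background, against 3.28, 56.7 and 45.5% of all tested genes. *grhl3*, a grainyhead factor of surface ectoderm with 1 *X. laevis* feature, had 165, 118 and 155 CPM maternal and 303, 339 and 366 CPM paternal (log2 ratio 1.21 ± 0.19, adjusted p = 0.00814). All paternal values lay above all maternal values although only 1 paternal copy was counted. *epcam*, an epithelial adhesion gene, had 1862, 2027 and 2229.5 CPM maternal and 324, 399.9 and 448 CPM paternal. *gmnn*, a geminin gene that acts in replication control and neural fate, had 1196, 1232 and 1784 and 205, 282 and 333 CPM. Both were higher on the maternal side, with shares of 16% ± 1.04 and 16.3% ± 2.07. *sox11* (22.6% ± 2.18), *krt18* (3.62% ± 0.751) and *foxi4.2* (36.3% ± 3.25) were too. The call of *foxi4.2* was lost without replicate 40 (log2 ratio -0.73) or 42 (-0.77).

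Further ectoderm genes were singled out after their values were seen. *foxj1*, the master regulator of motile cilia, had 12.8, 12.4 and 16.6 CPM maternal and 110.2, 122 and 131 CPM paternal (log2 ratio 3.13 ± 0.28, adjusted p = 0.00203). The *X. tropicalis* libraries held 12.6 CPM, within the range of the maternal copy in hybrids. The neural plate factor *zic1* had 101, 59.8 and 93.3 CPM maternal and 165, 191 and 265 CPM paternal, a share of 70.7% ± 7.59. The call of *zic1* was lost without replicate 41 (log2 ratio 1.11) or 42 (1.2). The neural forkhead gene *foxd4l1.1* was higher on the paternal side at 67.3% ± 4.32, and *foxi1*, an ectodermal forkhead gene, on the maternal side at 26.3% ± 5.97. Both lost their calls without each library in turn (0.91 to 1.19 and -1.75 to -1.32).

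The gastrula regulators were also split by copy number and chromosome. Joined gastrula regulators with 2 *X. laevis* features had a median share of 53.8% (n = 86) and those with 1 had 41.6% (n = 15). Members with a paternal copy on 3L or 4L had 44.9% (n = 17) and the others 51.8% (n = 84). Over all paired genes the same split gave 4.83% (n = 1597) and 8.33% (n = 7588).

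Genes of the DNA damage response, which answers breaks in DNA with cell cycle arrest and repair, lay between the regulators and the general functions. Of 21 tested, 2 were higher on the paternal side, 14 on the maternal side and 5 neither, with a median share of 17.4%. The maternal calls were 66.7% and the paternal calls 9.52%, against 56.7 and 3.28% of all tested genes, and 14 lay above background (66.7%, against 45.5%). *ccng1*, a damage-induced cyclin gene, had 649, 475 and 447 CPM maternal and 376, 378 and 347 CPM paternal (log2 ratio -0.49 ± 0.15, adjusted p = 0.0483). *plk2*, a stress-induced kinase gene, had 529, 480.3 and 551 and 179, 259 and 217 CPM, and *mdm2*, a ubiquitin ligase gene, had 313, 322 and 266 and 70.3, 95.4 and 89.8 CPM. In *X. tropicalis* libraries the same features held 65.5, 46.2 and 57.2 CPM, and the maternal copies alone were above those values in every hybrid library. That difference was not tested here. *sesn2*, a stress-induced metabolic regulator, had 54.7% ± 3.14 and was called neither way. *ppm1d*, a phosphatase gene, and *plk3*, a kinase gene, had 11.8% ± 0.257 and 7.42% ± 3.77. The call of *ccng1* was lost without each hybrid library (-0.57 to -0.35).

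The 2 paternal calls of the pathway were chosen after their values were seen. *cdkn1a*, the p21 inhibitor of cyclin-dependent kinases, had 44.1, 37 and 34.4 CPM maternal and 79.3, 91.1 and 99.1 CPM paternal against 4.35 CPM in *X. tropicalis* libraries (log2 ratio 1.23 ± 0.30, adjusted p = 0.0245). *sesn1* had 13.7, 18.4 and 18.8 CPM maternal and 76.2, 101 and 104 CPM paternal against 5.97 CPM (log2 ratio 2.47 ± 0.29, adjusted p = 0.00352). The call of *cdkn1a* was lost without replicate 41 (1.19) or 42 (1.08).

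The most abundant paternal transcripts were mostly not the most paternal by share. The 10 genes with the highest net paternal level were *cirbp*, *ficd*, *aplnr*, *anp32c*, *hmgb3*, *marcksl1*, *srsf2*, *srsf5*, *ddit4* and *hnrnpa1*. Of these, 3 were higher on the paternal side, 5 on the maternal side and 2 neither. Over all tested genes, 3.28% were paternal and 56.7% maternal calls. The 10 were picked by their paternal level, which also enters the call, so their paternal calls are partly built in. *ficd*, which encodes an enzyme of the endoplasmic reticulum that AMPylates a chaperone, had 31.1, 29.3 and 34.5 CPM maternal and 1146, 1381 and 1168 CPM paternal. Its share of 97.5% ± 0.406 was the highest of the 10, after a background of 114 CPM was subtracted. In *X. tropicalis* libraries the *X. tropicalis* feature of *ficd* held only 30.9 CPM, less than that background. Maternal RNA counted on *X. laevis* features is missing from the maternal level, so the share may be too high. *ddit4*, a stress-induced inhibitor of mTOR signalling, had 465, 286 and 382 CPM maternal and 663, 507 and 621 CPM paternal (log2 ratio 0.72 ± 0.13, adjusted p = 0.0107), a call lost without replicate 41 (0.65) or 42 (0.72).

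RNA-binding genes among the 10 were led by *cirbp*, the cold-inducible RNA-binding protein gene. It had 1911, 1825 and 1991 CPM maternal and 1282, 1394 and 1676 CPM paternal (log2 ratio -0.40 ± 0.10, adjusted p = 0.0248), and the maternal call was lost without each hybrid library (-0.48 to -0.31). The splicing factor gene *srsf2* lay close to balance in every library, at 565, 672 and 682 CPM maternal and 569.8, 696 and 659.7 CPM paternal (log2 ratio 0.01 ± 0.10, adjusted p = 0.952). *srsf5* had 32.6% ± 1.42 and *hnrnpa1* 36.6% ± 1.67, both higher on the maternal side. Others of the same list, *srsf1* and *hnrnpab*, had only 5.07% ± 0.353 and 5.67% ± 1.07. Of the 21 tested RNA-binding genes, 20 were higher on the maternal side and 1 was neither (*srsf2*), although 20 lay above background. Each 20 is 95.2%, against 56.7% maternal and 45.5% above background over all tested genes. Level was not matched: in the group of highest level in *X. tropicalis* embryos, 1722 of 1837 genes were maternal calls.

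Chromatin genes were the only list with maternal calls for every tested member, 18 of 18, among the 16 lists. Of these, 16 still lay above background (88.9%). Over all tested genes, 56.7% were maternal calls and 45.5% lay above background. *anp32c*, a histone chaperone gene, had 4193, 3379 and 4764 CPM maternal and 934, 820.2 and 1098 CPM paternal, a share of 18.8% ± 0.664. *hmgb3*, a high-mobility-group gene, had 3104, 2501 and 3227 and 767, 827 and 962 CPM, a share of 22.5% ± 2.54. *set*, *hmgn2* and the histone variant gene *h2afz* had 12.5% ± 1.29, 25% ± 1.57 and 19.9% ± 0.109. The chromatin remodeller gene *smarca5*, with 1 *X. laevis* feature, had 2.34% ± 0.764.

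Genes for the machinery that every cell carries were led by the maternal copies. Of 25 proteasome genes, 24 were higher on the maternal side and 1 was neither, with a median share of 4.70%, and 21 lay above background. Maternal calls were 96% and genes above background 84%, against 56.7 and 45.5% of all tested genes. *psmc5*, a base ATPase of the proteasome, had 168, 174 and 177 CPM maternal and 9.44, 15.6 and 21.4 CPM paternal. *psmd6*, *psmd11*, *psma2*, *psmd1* and *psmb2* had shares of 1.89%, 7.13%, 3.53%, 3.34% and 1.92%. Of 45 respiratory chain genes, 35 were higher on the maternal side and 10 neither, with a median of 4.46%. The maternal calls were 77.8% of the list, against 56.7% of all tested genes, and the 20 above background were 44.4%, close to the 45.5% of all tested genes. *atp5b*, the catalytic subunit of ATP synthase, had 837, 824 and 919.9 CPM maternal and 32.3, 29.8 and 56.9 CPM paternal. Cytochrome c (*cycs*) had 129, 141 and 158 and 0.579, 1.01 and 1.88 CPM, which put almost all of its RNA on the maternal copy. *atp5c1*, *atp5o* and *uqcrfs1* had 1.28%, 8.78% and 4.46%.

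Ribosomal protein genes had somewhat higher shares, with a median of 12.8% over 30 tested members, 23 maternal calls, 6 neither and 26 above background. Maternal calls were 76.7% and genes above background 86.7%, against 56.7 and 45.5% of all tested genes. The paternal calls were 3.33%, close to the 3.28% of all tested genes. *rpl3* had 111, 133 and 118 CPM maternal and 12.4, 18.1 and 21.8 CPM paternal. *rplp1*, *rps29*, *rpl36* and *rpl8* had shares of 3.66%, 6.56%, 9.15% and 6.68%. The 1 paternal call, chosen after its values were seen, was *rps13* at 9.78, 15.8 and 18.1 CPM maternal and 36.7, 33.9 and 60.4 CPM paternal. Its *X. tropicalis* feature lay on an unplaced scaffold, and the call was lost without each hybrid library in turn (log2 ratio 1.44 to 1.84). Ribosomal protein genes have many near-identical copies in vertebrate genomes, and reads shared between them may have been counted on any of them.

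Carbon metabolism genes were mostly higher on the maternal side. Of 21 tested genes, 18 were higher on the maternal side and 3 neither, with a median of 3.54% and 13 above background. Maternal calls were 85.7% and genes above background 61.9%, against 56.7 and 45.5% of all tested genes. Citrate synthase (*cs*) had 521, 508 and 481 CPM maternal and 23.3, 30.5 and 36.4 CPM paternal, and the paternal copies of *suclg2*, another enzyme gene of the tricarboxylic acid cycle, did not lie above background. *dlst*, of the same cycle, had 0.998%. *pdk4*, a kinase that switches off pyruvate dehydrogenase, had 109, 80.9 and 111 CPM maternal and 97.3, 94.2 and 118 CPM paternal (log2 ratio 0.05 ± 0.22, adjusted p = 0.855), against 6.62 CPM in *X. tropicalis* libraries. *pfkfb3*, a regulator of glycolytic flux, had 39.4% ± 2.54 and just missed the test (adjusted p = 0.0543).

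Transcripts that eggs store had the lowest median share of any list with 10 or more tested genes. Of 22 egg and germ plasm genes, 17 were higher on the maternal side and 5 neither, none on the paternal side, with a median of 2.41%. The maternal calls were 77.3%, against 56.7% of all tested genes, and the 10 above background were 45.5%, as over all tested genes. The cyclin and cell cycle genes *ccna1*, *ccnb2*, *ccne1* and *cdc25a* had shares of 1.36%, 7.25%, 6.68% and 6.10%. *h1foo*, the oocyte linker histone gene, had 228, 378 and 333 CPM maternal and 0.455, 0.209 and -0.00312 CPM paternal. *foxh1*, a maternal Nodal effector, had 2.52% ± 0.318. *mos*, an oocyte kinase gene chosen after its values were seen, had 11.8, 8.57 and 8.03 CPM maternal and 7.54, 6.57 and 8.92 CPM paternal and was called neither way (adjusted p = 0.618). Of 13 tested pluripotency and genome activation genes, 5 were higher on the maternal side, 1 on the paternal side and 7 neither, with a median of 5.0%. The percentages were 38.5% maternal, 7.69% paternal and 30.8% above background, against 56.7, 3.28 and 45.5% of all tested genes. *nfya* had 7.33% ± 0.989 and *dnmt1* 0.799% ± 0.228, while *foxi2* did not lie above background. *pou5f3.3*, a pluripotency factor gene, had a background of 40.4 CPM and was called neither way, but maternal with DESeq2 (log2 ratio -0.87) and with limma on net ratios (-2.93). The paternal call was *foxr1*, chosen after its values were seen, at 83.5% ± 3.69. Its background was 5.75 CPM, which is 14.7% of its *X. laevis* level in hybrids. In *X. tropicalis* libraries the *X. tropicalis* feature of *foxr1* held 4.32 CPM, less than that background, so the share may be too high.

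Cytoskeleton and adhesion genes included both kinds. Of 18 tested, 1 was higher on the paternal side, 12 on the maternal side and 5 neither, with a median of 13.4%. The maternal calls were 66.7% and the paternal calls 5.56%, near the 56.7 and 3.28% of all tested genes. Above background lay 14 of them (77.8%, against 45.5% of all tested genes). *cdh3*, the cadherin of the egg, had 1187, 1081 and 847 CPM maternal and 15.7, 14.7 and 21.0 CPM paternal, a share of 1.69% ± 0.631. *cdh1*, the E-cadherin gene chosen after its values were seen, had 8.06, 10.2 and 9.34 CPM maternal and 25.1, 23.4 and 33.1 CPM paternal, from 1 S feature. The log2 ratio of *cdh1* was 1.56 ± 0.41 (adjusted p = 0.0304), and its call was lost without each hybrid library in turn (1.42 to 1.73). The 2 cadherins were called in opposite directions. *marcksl1*, a membrane-cytoskeleton linker gene, had 908, 823 and 796 CPM maternal and 569, 747 and 674 CPM paternal and was called neither way (adjusted p = 0.102), and *actg1* had 1.21% ± 0.564. Of 5 paired tissue differentiation markers, 3 passed the low-count filter and none lay above background.

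Paternal calls included many genes with little maternal RNA. This is partly built in, because a call needs a net paternal level above the maternal level, and paternal counts alone could pass the filter. Of the 301, 151 fell in the lowest of the 5 level groups, which held 1837 of the 9185 tested genes. Over the 301, the median share was 89.7%, the median log2 ratio 3.41 and the median net paternal level 16.3 CPM. The maternal copy had no count in any hybrid library for 36 of them, and 120 were under 1 CPM in the *X. tropicalis* libraries, while 88 were over 10 CPM there. The background was a median of 1.78% of the *X. laevis* level in hybrids, and exceeded 10% for 95 genes. Placeholder names, made of a model number or clone or holding the word like or provisional, were carried by 101 of the 301.

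The 12 genes with the largest ratios included 6 without a maternal count: *arg1*, *fam83b*, *tnfrsf19*, *tmem116*, *nppb* and *serp2*. Against a floor of 3 counts over the 3 hybrid libraries, the paternal counts net of background were at least 1702-fold higher for *arg1* (arginase), 1189-fold for *fam83b*, 1096-fold for *tnfrsf19* (a receptor of the tumour necrosis factor family), 935-fold for *nppb* (a natriuretic peptide gene) and 890.3-fold for *tmem116*. *arg1* had 15.3, 19.4 and 35.8 CPM on the paternal copy. The *X. tropicalis* features of these genes were also low in *X. tropicalis* embryos, at 0.284, 1.89, 0.232, 0.0869 and 0.181 CPM in the same order. *serp2* is uncertain: its background was 70.6% of its hybrid level, its *X. laevis* features lay on different chromosome numbers (2S and 5L), and its call was lost without hybrid replicate 41 or *X. tropicalis* replicate 37 or 39. *ripk2*, a kinase gene of innate immune signalling, had 0, 0 and 0.0309 CPM maternal and 46.1, 89.0 and 49.6 CPM paternal. *ceacam8*, *itga3* (an integrin gene) and *rnf24* had 14.8, 19.8 and 24.1, 6.42, 8.66 and 16.6 and 19.7, 36.1 and 21.2 CPM on the paternal copies and at most 0.0269, 0.0309 and 0.229 CPM on the maternal copy.

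Maternal calls reached the other extreme. The median share over the 5208 was 2.60%, and 1533 had less than 1%. Paternal copies lay above background for 2625 and not for 2583, which include genes with too few *X. laevis* counts for the background test. Of the 5208, 137 had no paternal count in any hybrid library. The 10 most abundant maternal genes without paternal RNA above background included *zc3h13*, *akt1s1*, *ctnna1*, *nup50*, *esco1*, *rrm2.1*, *psap*, *ankrd13c* and *rab14*. *akt1s1*, an mTOR complex inhibitor gene, had 1049.8, 1122 and 1206 CPM maternal and 1.45, 2.34 and 2.47 CPM paternal. *ctnna1*, the alpha-catenin gene of cell junctions, had 863, 694 and 708 and 5.77, 3.06 and 1.08 CPM. *esco1*, a cohesin acetyltransferase gene with 1 *X. laevis* feature, on 6L, had 699, 642 and 817 and 1.29, 2.36 and 1.14 CPM. *rrm2.1*, a ribonucleotide reductase subunit gene, had 533, 438 and 1081 CPM maternal and 0, 0.705 and 0 CPM paternal. *zc3h13* had a background of 57.1 CPM, and *psap* 28.5 CPM, which limits what could be seen of their paternal copies. The shares of the 10 ran from 0.0536 to 0.987%.

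At the balance point stood abundant genes called neither way. Besides *srsf2* and *marcksl1*, the 8 most abundant were *syncrip*, *sp5l*, *traf4*, *bsg*, *prickle1* and *atg16l1*. *prickle1*, of planar cell polarity, had 307, 289 and 286 CPM maternal and 309, 285 and 303 CPM paternal (log2 ratio 0.03 ± 0.13, adjusted p = 0.876). *sp5l*, a Wnt-responsive zinc finger gene, had 374, 361 and 423 and 303, 349 and 373 CPM, and *traf4*, an adaptor gene, 356, 257 and 330.0 and 338, 314 and 341 CPM. In *X. tropicalis* libraries *traf4* held 53.5 CPM, below the maternal level and the summed paternal level in hybrids. Nearly all of its paternal counts lay on L. Without background subtraction, the L feature of *traf4* held a mean of 334 CPM in hybrids and the S feature 3.72 CPM. *atg16l1*, an autophagy gene, had 47.2% ± 5.10, and *bsg*, a cell surface glycoprotein gene, had 51.4% ± 4.87. *syncrip* belongs here only by its fitted ratio of -0.13 ± 0.19, which is not net of background: its background was 355 CPM and its net share 18.3% ± 8.50. Counted per paternal copy, with the paternal sum divided by the number of *X. laevis* features, the ratios of *prickle1* and *traf4* turned to -0.97 and -0.88, and those of *srsf2* to -0.99 and *aplnr* to -0.25. On that scale 203 genes were higher on the paternal side and 5622 on the maternal side. The scale averages L and S features, which can be very unequal. In hybrids, without background subtraction, *prickle1* had 2.23 CPM on L and 297 CPM on S. *srsf2* had 550 and 93.3 CPM on L and S, and *aplnr* 668 and 344 CPM.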

How the data were processed

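PolyA RNA of whole embryos was measured in 3 hybrid and 3 *X. tropicalis* libraries. The authors deposited raw counts per feature of both species, without normalization, in 1 table, and a second table summed to human names was not used. BWA 0.7.10 is named in the submitters' processing notes. The sources used here do not give the counting program, genome builds, transcript models or use of strand. A read that matches L and S, near-identical genes or both species may have gone to any of these. No reference genome was used.

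Tests were edgeR's quasi-likelihood test on these counts, with its low-count filter and Benjamini-Hochberg adjustment at 0.05 over all genes tested (R 4.3.3 with edgeR 4.0.16). Paternal against maternal copies were fitted on 6 columns, 2 per hybrid library, with the library as a block and 1 library size for both columns. *X. laevis* counts above background were fitted as hybrid against *X. tropicalis* libraries, with TMM factors from *X. tropicalis* features. CPM are counts per effective library size. A standard error is the log2 ratio over the root of F. Common biological coefficients of variation were 0.843 and 0.846. Chi-square over its degrees of freedom was 74.7 to 132.6 between replicates, so none was treated as a repeat deposit. The series calls the libraries of a group biological replicates, and p-values measure the spread among them. In simulated counts with known changes, the test between copies recovered 16% of 2-fold and 97% of 4-fold changes over 9175 genes, and the background test 11 and 94% over 13057 names. The simulated counts spread less between libraries than the common coefficients above, and changes were placed only in genes with enough counts. Recovery in these data may therefore be lower. PCR copies are not independent molecules, so the floor of 3 counts covers counting error only.

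The pairs, the 16 lists and the tests were chosen with earlier results of these data known. Named genes, leaving out placeholder names, are the 12 largest paternal ratios among paternal calls with at least 10 CPM over both copies, the 10 highest paternal levels, the 10 highest maternal levels without paternal RNA above background, the 8 most abundant genes called neither way, and up to 6 most abundant members of each list. Not every gene that the rule takes is described. Genes outside the rule are marked in the text as chosen after their values were seen. DESeq2 1.42.0 and limma 3.58.1 gave alternatives.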

Additional observations from a re-analysis of the deposited data

Results flagged for a closer look

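*X. laevis* names that form no pair were not used in the comparison between copies, and they too held paternal RNA. Of 6088 such names tested, 3021 (49.6%) lay above the background of the *X. tropicalis* libraries (edgeR quasi-likelihood test, Benjamini-Hochberg adjusted), against 59.8% of the paired names. Their summed net level was 39270 CPM ± 6282 (SD, n = 3 hybrid libraries). These names have no maternal copy under the same name, or more than 1, so no paternal share can be given for them.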

How the results depend on the processing

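The 301 paternal calls became 605 with DESeq2, 588 with limma on net log2 ratios (pseudocount 0.5) and 523 (pseudocount 0.1), and the cause was not tested. They ranged from 120 to 292 when 1 library was left out, and with 2 hybrid libraries fewer samples enter the fit. Other settings gave 203 (per paternal copy) to 446 (no background subtraction). In the setting with 446, a call was also not required to lie above background, and 130 of those genes did not. Homologous chromosomes alone gave 257, and genes with a background under 10% of the paternal level gave 206, both chosen after seeing the data. The 5208 maternal calls ranged from 3620 to 6656. Hybrid and *X. tropicalis* libraries were not paired, because the sources used here do not say whether any of them share parents. Within hybrids the library is the block, and with no replicate block there were 424 paternal and 5655 maternal calls. The 4180 genes above background became 1843 with a 5 CPM filter, which tested 4176 names, and otherwise ranged from 3789 to 4629. The paternal share of 11.3% was 14.1% with no background subtracted and otherwise 10.9 to 12%. The number of lists with a median above that of all genes was 10, or 9 to 11. Per paternal copy, the log2 ratios of *aplnr* (-0.25), *bmp4* (-0.77), *bsg* (-0.75), *ddit4* (-0.28), *pdk4* (-0.95), *prickle1* (-0.97), *rasl11b* (-0.39), *srsf2* (-0.99), *t* (-0.92) and *traf4* (-0.88) turned negative, by construction of that scale. On the same scale the paternal calls of *admp*, *cdkn1a*, *fgf3*, *foxd4l1.1*, *gsc*, *hhex*, *pnhd*, *rps13*, *ventx3.2* and *zic1* were lost, at ratios of 0.05 (*foxd4l1.1*) to 1.77 (*ventx3.2*). That scale averages L and S features even where 1 of them is nearly silent. *pdk4*, for example, had 0.384 CPM on L and 103 CPM on S in hybrids without background subtraction. With limma at both pseudocounts *aplnr*, *ccng1*, *cirbp*, *ddit4*, *foxi4.2*, *hnrnpa1* and *rasl11b* lost their calls. Of genes called neither way, *hes1* and *pou5f3.3* also passed with no replicate block (1.1 and -0.87), as did *eomes*, *wnt11b*, *mix1* and *pfkfb3* (0.68, 0.74, -0.46 and -0.61). Not every gene whose call changed is named here. Depth limits calls of low genes: 787 pairs had too few counts to test.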

Other observations

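Paired Nodal family genes, chosen after their values were seen, did not share 1 balance. *nodal* had 4.03, 3.21 and 5.62 CPM maternal and 5.65, 3.49 and 2.15 CPM paternal in hybrid replicates 40, 41 and 42, a paternal share of 46.1% ± 16.2 (SD, n = 3). *nodal1*, with 1 paternal feature, on 3S, had 9.76, 7.78 and 12.6 and 6.38, 4.57 and 1.97 CPM, a share of 30.0% ± 14.3. *nodal2* and *nodal3.2* had 11.9% and 1.49%, and both were higher on the maternal side by the edgeR test. *nodal6* had 7.06, 3.68 and 0.0618 CPM maternal and 2.1, 0 and 0.0309 CPM paternal, and lay under 1 CPM on the paternal side in 2 of the 3 libraries. *nodal*, *nodal1* and *nodal6* were called neither way (adjusted p = 0.868, 0.164 and 0.318). Apart from *nodal*, on chromosome 7, these genes have their paternal copies on 3L or 3S, and the differences between them were not tested.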
